A study of Mus musculus with 3 samples.

Results

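The Dlk1-Meg3 region of mouse chromosome 12 was described through 7 genes, Begain, Dlk1, Meg3, Rtl1, Rian, Mirg and Dio3, which were taken by name. All 7 were listed in each of the 3 single-cell count tables, among 27886 gene symbols listed in at least 1 table. The tables came from F1 male cells of a C57BL/6J mother and a CAST/EiJ father (labelled C57BL/6 x CAST/EiJ), so every cell carried both parental genomes. The first held mouse embryonic stem cells (mESC, 215 cells, 2i and LIF medium). The second held cardiac precursor cell cultures (CPCC, 175 cells, grown out of dissociated embryoid bodies with EGF and Fgf2 and taken at the fourth passage). The last held cells of cardiac bodies (CB, 232 cells), hand-picked beating bodies that formed from stem cell aggregates in medium with ascorbic acid. The study derived these cultures from 3 clonal male stem cell lines. Each culture was 1 sample, so no difference between cultures had a replicate check and no test was made. The cells of a culture were sequenced in 2 or 3 pools, and the tables did not tie a pool to a clone or a dish. Pool values are therefore given as a description, and clone, dish and library cannot be told apart in them. All values are totals of both alleles.

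Imprinted genes are transcribed mainly from the copy of 1 parent. In this region the protein-coding genes Dlk1, Rtl1 and Dio3 are expressed from the paternal chromosome, and the noncoding RNAs Meg3, Rian and Mirg from the maternal chromosome. A methylated element between Dlk1 and Meg3 sets the choice, and the region is known for its loss of Meg3 expression in some pluripotent cell lines. Dlk1 encodes a transmembrane protein with EGF-like repeats, related to the Notch ligands, and Rtl1 a protein that derives from a retrotransposon and is needed in the placenta. Dio3 encodes the deiodinase that inactivates thyroid hormone. Meg3 is a long noncoding RNA, Rian hosts many small nucleolar RNAs, and Mirg hosts a large group of microRNAs. Begain, at the edge of the region, encodes a protein of neuronal synapses.

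The annotated positions in GRCm38 were chr12:109032187-109068217 for Begain (minus strand), chr12:109452823-109463336 for Dlk1 (plus), chr12:109541001-109571726 for Meg3 (plus), chr12:109589193-109600330 for Rtl1 (minus), chr12:109603940-109661716 for Rian (plus), chr12:109729764-109749460 for Mirg (plus) and chr12:110279068-110281097 for Dio3 (plus). From Begain to Dio3 the annotation held 122 genes over 1249 kb, of which 69 were microRNA genes and 23 small nucleolar RNA genes. None of these small RNA genes was listed in a table. Of the other symbols, 8 besides the 7 members were listed. Those that reached 1 CPM, a share of 1 in 1000000 of the counts of a culture, in a culture were Gm37899, B830012L14Rik, Dio3os and Gm3379. Gm37899 and B830012L14Rik lie on the plus strand between Rian and Mirg, and the gaps along this run were 32.2 kb from Meg3 to Rian, 7.15 kb from Rian to Gm37899, 18.0 kb from Gm37899 to B830012L14Rik and 27.2 kb from there to Mirg. These 5 RNAs, Meg3, Rian, Gm37899, B830012L14Rik and Mirg, are called the plus-strand RNAs here.

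The promoters of Meg3 and Dlk1 are printed because these 2 neighbours had the highest levels of the 7 genes in CB cells over all pools. Without the first CB pool Dlk1, at 24.2 CPM, was below Rian, at 101 CPM. The windows run from 250 bases before to 50 after the RefSeq start in GRCm38.p6, and both are on the plus strand. Capitals mark a cyclic AMP response element TGACGTCA, the TATA hexamer TATAAA and the hexamer TGCCGC that is bound by the imprint factor ZFP57, each searched on both strands.
Meg3, chr12:109540746-109541045: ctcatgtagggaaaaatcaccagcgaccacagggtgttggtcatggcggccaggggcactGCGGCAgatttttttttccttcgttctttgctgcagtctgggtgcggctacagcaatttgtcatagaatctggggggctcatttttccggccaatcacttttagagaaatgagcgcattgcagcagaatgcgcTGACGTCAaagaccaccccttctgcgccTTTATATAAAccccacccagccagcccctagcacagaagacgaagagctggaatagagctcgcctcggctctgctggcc
Dlk1, chr12:109452573-109452872: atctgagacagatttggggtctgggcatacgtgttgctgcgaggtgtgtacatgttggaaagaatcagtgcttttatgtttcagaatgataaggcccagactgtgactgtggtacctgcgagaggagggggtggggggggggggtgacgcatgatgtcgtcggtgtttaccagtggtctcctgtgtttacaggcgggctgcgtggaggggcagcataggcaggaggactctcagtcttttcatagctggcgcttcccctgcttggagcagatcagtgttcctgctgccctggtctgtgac
The Meg3 window held all 3 motifs, with TGACGTCA starting 57 bases before the start, TATAAA 25 bases before it on the plus strand and, overlapping it, 29 bases before it on the minus strand, and TGCCGC on the minus strand 190 bases before it. The Dlk1 window held none of these letters. Of 32851 RefSeq mouse promoters of this length, 1.79% held TGACGTCA, 13.6% TATAAA and 11.6% TGCCGC. The windows of Rian, Mirg and Begain also held none of the 3, and that of Dio3 held TATAAA 31 bases before the start. The promoters differed in CpG content. The Rian window had 0 CpG dinucleotides, Dlk1 9, Mirg 10, Meg3 13 and Dio3 25 (a second RefSeq start of Meg3, chr12:109545148-109545447, had 1), against a median of 7 over all promoters, and the windows of Begain had 34 to 46. Rtl1 had no entry in the promoter table.

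The region is also one of the densest groups of microRNA genes, and these were not measured, since the libraries were made from polyadenylated RNA and the tables listed no microRNA. RefSeq placed 57 hairpins with 112 mature microRNAs between the start of Meg3 and the end of Mirg, 106 of them on the plus strand. Of the mature microRNAs, 13 lie inside Rtl1, 26 inside Mirg, 6 inside Rian and 3 inside Meg3. Those inside Rtl1 bear on its counts, since 11 of the 13 lie on the plus strand, where the maternal chromosome carries a transcript that runs antisense to Rtl1. For 4 of these the mature sequence is shown with the seed, bases 2 to 8, in capitals.
miR-431-5p: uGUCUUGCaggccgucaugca
miR-433-3p: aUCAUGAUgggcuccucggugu
miR-127-3p: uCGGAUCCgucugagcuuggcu
miR-136-5p: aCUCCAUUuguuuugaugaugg
The 4 seeds differ from one another. Whether the counts were made by strand is not given in the sources used here, so reads of Rtl1 and of its antisense transcript cannot be told apart.

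The cultures were set apart by their marker genes, and the CB table did not show cardiomyocyte markers in most of its cells. All 10 pluripotency markers were in most mESCs, at 10524 CPM in sum, and 9 of 10 in most CPCC cells, at 3394 CPM with 5693 and 1242 CPM in its 2 pools. Smooth muscle markers were highest in CPCC, at 5731 CPM (4051 and 7304 CPM by pool) with 3 of 7 in most cells, against 1437 CPM in CB. In CB the pluripotency markers summed to 169 CPM, and Pou5f1, Dppa5a and Dppa4 were not listed. Of 12 cardiomyocyte markers none was found in most cells of the CB table, and their sum was 590 CPM with pools from 23.8 to 1354 CPM. Fibroblast markers in CB summed to 9598 CPM, with 14515, 568 and 15755 CPM in the 3 pools. The second CB pool thus stood apart in fibroblast markers, and it also held most of the endothelial signal (1393 CPM beside 98.1 and 58.1 CPM). Summed over cells, the 3 tables held 351190000, 275992000 and 338222000 counts, with medians of 1528320, 1437410 and 1397870 per cell.

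Meg3 was counted at 20.3 CPM in mESC, against 59.7 CPM for CPCC and 299 CPM for CB, from the counts summed over all cells of a culture. The exact Poisson intervals were 19.9 to 20.8, 58.7 to 60.6 and 298 to 301 CPM, and these and all other intervals cover counting error only. By pool it was at 12.3, 7.19 and 46.4 CPM in mESC, at 49.8 and 68.9 CPM in CPCC and at 335, 233 and 345 CPM in CB. The pools of the 3 cultures did not overlap, although the third mESC pool lay close to the lower CPCC pool. The log2 ratio of (CPM + 1) was 1.51 for CPCC over mESC, 3.81 for CB over mESC and 2.31 for CB over CPCC. The first was 1.03 without the second mESC pool and 2.53 without the third. Of the 19855 genes listed in both the mESC and the CB table, 2.92% had a higher ratio than Meg3.

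The number of cells with Meg3 moved in the same order. At least 1 count was found in 120 of 215 mESCs, in 138 of 175 CPCC cells and in 205 of 232 CB cells, or 55.8%, 78.9% and 88.4% (Clopper-Pearson intervals 48.9 to 62.6%, 72.1 to 84.7% and 83.5 to 92.2%). After each cell was thinned to 430000 counts the shares were 52.8%, 79.6% and 88.1%. The level per cell moved more than the share. Among cells of at least 100000 counts the median was 2.87 CPM in mESC, against 30.2 CPM for CPCC and 204 CPM for CB, and the upper quartile 22.4, 70.6 and 454 CPM. Of all Meg3 counts 50% came from 14 mESCs, 15 CPCC cells and 33 CB cells.

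In mESC a group of low-quality cells carried part of the Meg3 signal. The 25 mESCs with fewer than 100000 counts, fewer than 2000 genes or more than 20% mitochondrial counts held 2.504% of all counts and 28.5% of the Meg3 counts, at 232 CPM against 14.9 CPM in the other 190 cells. For Rian the same cells held 4.47% of the counts, at 35.4 CPM against 19.4 CPM. In CPCC and CB the cells outside these limits held 0.188% and 0.970% of the Meg3 counts. With these cells left out, the log2 ratio of Meg3 for CB over mESC was 4.24.

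A copy of part of Meg3 on chromosome X was counted as a gene of its own. Gm27000 (chrX:88759471-88760312, minus strand, 842 bp) shared 793 of its 818 distinct words of 25 bases with the annotated Meg3 transcripts on the same strand. Of the 27886 listed genes it was the 1 found to share at least 10% of the words of either gene with one of the region genes searched. It was at 0.717 CPM in mESC, against 1.94 CPM for CPCC and 10.1 CPM for CB, or 3.52%, 3.26% and 3.38% of the Meg3 count. It was found in 26 mESCs, 59 CPCC cells and 116 CB cells, and in 0 cells without Meg3. Reads of the 2 genes may be split between them by the counting, so Meg3 is uncertain by about this share. With Gm27000 added to Meg3 the log2 ratios stayed within 0.01 of those above for CB over mESC and for CB over CPCC.

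Rian was counted at 19.8 CPM in mESC, against 64.1 CPM for CPCC and 106 CPM for CB. By pool it was at 20.2, 7.15 and 36.1 CPM in mESC, at 62.8 and 65.3 CPM in CPCC and at 126, 83.0 and 117 CPM in CB, and the 3 ranges did not overlap. The log2 ratio was 1.65 for CPCC over mESC, 2.36 for CB over mESC and 0.71 for CB over CPCC, the last below the 2-fold limit. Its share of cells did not follow its level. Rian was found in 43.3% of mESCs, 72.6% of CPCC cells and 58.2% of CB cells (Clopper-Pearson intervals 36.5 to 50.2%, 65.3 to 79.0% and 51.6 to 64.6%), and in 40.9%, 71.97% and 56.7% after thinning. In CB the cells with Rian thus had more of it, with a median of 115 CPM in these cells against 49.7 CPM in CPCC and 19.3 CPM in mESC. Of the cells in the first CPCC pool 86.1% held Rian and of those in the second 61.5%.

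Mirg was the least abundant of the plus-strand RNAs. It was counted at 0.495 CPM in mESC, against 3.11 CPM for CPCC and 7.56 CPM for CB. By pool it was at 0.461, 0.0583 and 1.11 CPM in mESC, at 1.51 and 4.62 CPM in CPCC and at 6.19, 8.08 and 7.68 CPM in CB. These ranges did not overlap, and the cells with at least 1 count were 16 mESCs, 48 CPCC cells and 51 CB cells. The log2 ratio was 1.46 for CPCC over mESC, 2.52 for CB over mESC and 1.06 for CB over CPCC, the last lost under other scalings (0.90 with TMM factors, 0.89 with size factors from DESeq2). Without the second CPCC pool the ratio for CPCC over mESC was 0.74, and with a pseudocount of 10 CPM the ratios over mESC were 0.32 for CPCC and 0.74 for CB.

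The 2 RNAs between Rian and Mirg, which are not among the 7 genes, lay in the same order of cultures. Gm37899 was at 30.9, 76.3 and 133 CPM in mESC, CPCC and CB, and B830012L14Rik at 2.77, 17.3 and 29.0 CPM. The Gm37899 pools were at 18.9 to 56.8, 75.2 to 77.3 and 123 to 148 CPM and did not overlap, whereas those of B830012L14Rik, at 1.07 to 3.93, 9.84 to 24.4 and 22.4 to 43.4 CPM, overlapped between CPCC and CB. Both were below the 2-fold limit for CB over CPCC, at log2 ratios of 0.79 and 0.71, and without the second CPCC pool B830012L14Rik was at 9.84 CPM in CPCC. The 5 plus-strand RNAs together made up 74.3 CPM of the mESC counts, 220 CPM of the CPCC counts and 575 CPM of the CB counts.

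**Figure D1:**
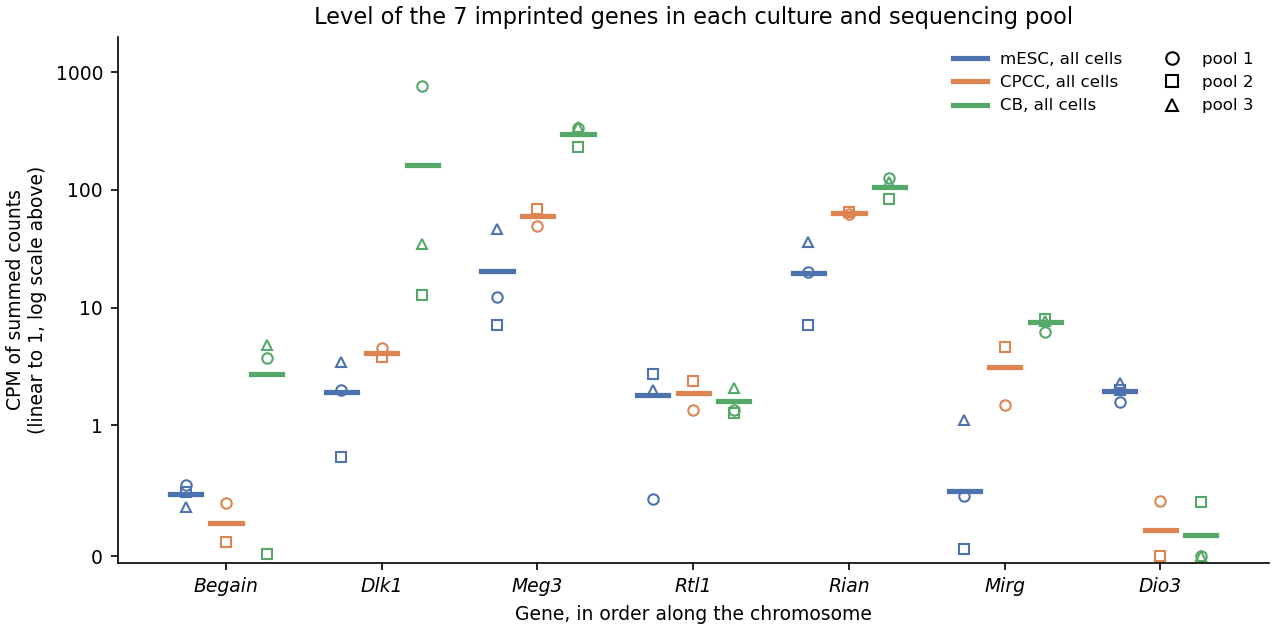
CPM of the summed counts (linear up to 1, log scale above) for the 7 genes in chromosomal order, with a bar for all cells of a culture and an open symbol for each sequencing pool. Meg3, Rian and Mirg stepped up from mESC to CPCC to CB with pools apart, Dlk1 spread from 12.9 to 769 CPM over the CB pools, the Rtl1 pools of the 3 cultures overlapped, and Dio3 was highest in mESC.

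Dlk1 was counted at 1.94 CPM in mESC, against 4.16 CPM for CPCC and 161 CPM for CB, and its CB level rested on 1 pool. By pool it was at 2.01, 0.757 and 3.44 CPM in mESC, at 4.53 and 3.82 CPM in CPCC and at 769, 12.9 and 34.6 CPM in CB. Every CB pool was above every pool of the other cultures, but the first CB pool held 87.8% of the Dlk1 counts. The log2 ratio was 0.81 for CPCC over mESC, 5.79 for CB over mESC and 4.98 for CB over CPCC. Without the first CB pool the CB level was 24.2 CPM, and the ratios were 3.10 over mESC and 2.29 over CPCC.

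Dlk1 also differed between the pools in how many cells held it. It was found in 37 mESCs (17.2%), 50 CPCC cells (28.6%) and 100 CB cells (43.1%), with Clopper-Pearson intervals of 12.4 to 22.9%, 22.0 to 35.9% and 36.6 to 49.7%. In CB it was found in 82.6% of the cells of the first pool, 24.4% of the second and 28.2% of the third (interval 71.6 to 90.7% for the first). The median cell of the first pool had 328 CPM and its highest cell 5435 CPM, whereas the medians of the other 2 pools were 0 and their highest cells were at 346 and 455 CPM. In CPCC the 2 pools had nearly the same level but 48.1% and 12.5% of cells with Dlk1 (intervals 36.7 to 59.6% and 6.63 to 20.8%), so that the second pool had its counts in fewer cells. The first CB pool was the shallowest of the 8, with a median of 804581 counts per cell. Smooth muscle markers, a list of 7 genes, summed to 3484 CPM in it beside 988 and 962 CPM in the second and the third, and the part of either in the Dlk1 level was not tested. Meg3 was not set apart in it, at 335 CPM beside 233 and 345 CPM.

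**Figure D2:**
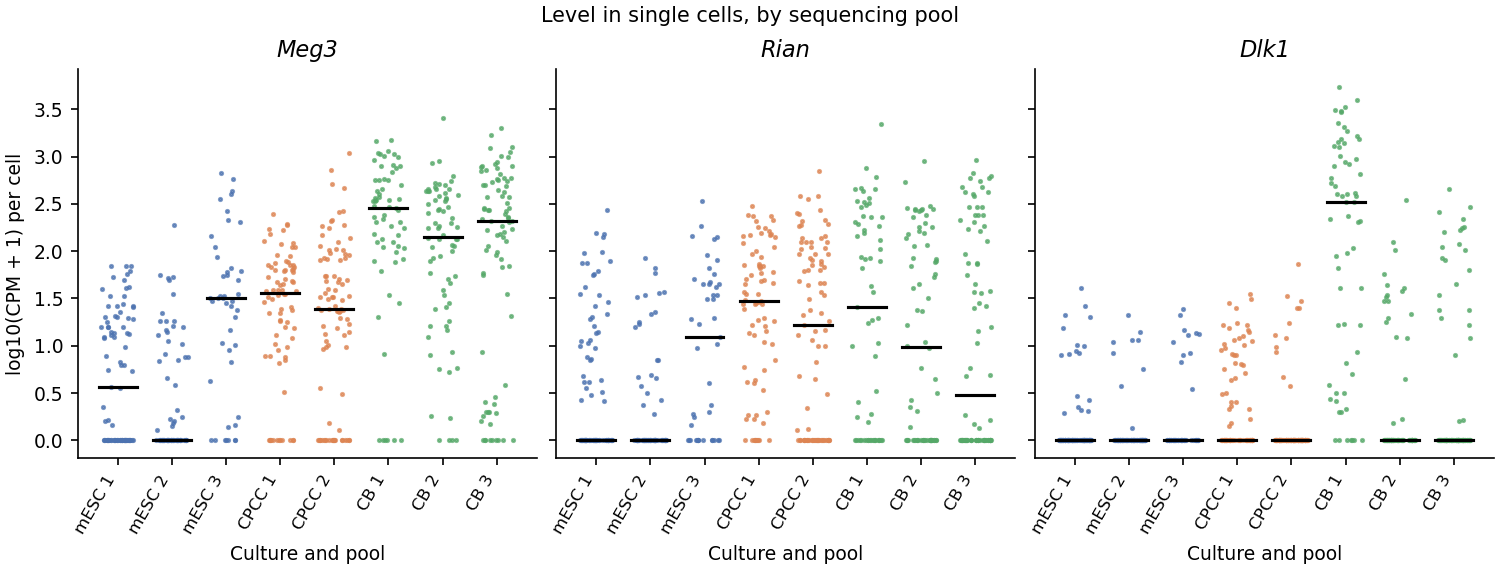
Each point is 1 cell of at least 100000 counts, plotted as log10(CPM + 1) by culture and sequencing pool, and the black line is the median of the pool. Meg3 was shifted upwards in all 3 CB pools, Rian had many cells at 0 beside cells above 100 CPM in CB, and Dlk1 was above 0 in most cells of the first CB pool and in fewer of the other pools.

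Rtl1 did not differ 2-fold between any pair. It was counted at 1.81 CPM in mESC, against 1.88 CPM for CPCC and 1.63 CPM for CB, with pools at 0.434, 2.75 and 2.01 CPM in mESC, 1.34 and 2.39 CPM in CPCC and 1.36, 1.26 and 2.07 CPM in CB. These ranges overlapped. The log2 ratios were 0.04, -0.10 and -0.13 for CPCC over mESC, CB over mESC and CB over CPCC. The counts were spread differently over cells, with 9 mESCs (4.19%), 20 CPCC cells (11.4%) and 28 CB cells (12.1%) that held Rtl1. In mESC 1 cell held 56.9% of the counts. When each cell was given the same weight, the ratio for CPCC over mESC was 1.07.

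Dio3 was the 1 gene of the 7 that was lower in both differentiated cultures. It was counted at 1.95 CPM in mESC, where the pools were at 1.59, 2.003 and 2.27 CPM and 34 of 215 cells held it (15.8%, interval 11.2 to 21.4%). In CPCC it was at 0.203 CPM from 3 cells, 96.4% of it from 1 cell, and in CB at 0.163 CPM from 2 cells. Of the CPCC pools 1 was at 0, and of the CB pools 2. The log2 ratio was -1.30 for CPCC over mESC and -1.34 for CB over mESC. Its head-to-head neighbour Dio3os was at 1.05 CPM in mESC and 0.964 CPM in CB, from 12 and 6 cells, and was not listed in the CPCC table. Without the second CB pool it was at 0.0339 CPM in CB, from 1 cell. Of the 12 mESCs with Dio3os, 5 held Dio3.

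Begain was found in few cells of any culture. It was counted at 0.473 CPM in mESC from 10 cells, 0.254 CPM in CPCC from 6 cells and 2.73 CPM in CB from 12 cells. By pool it was at 0.543, 0.488 and 0.377 CPM in mESC, at 0.405 and 0.112 CPM in CPCC and at 3.70, 0.0151 and 4.80 CPM in CB, so the CB pools lay on both sides of the others. Its log2 ratio was 1.34 for CB over mESC and 1.57 for CB over CPCC. In CB 50% of the counts came from 2 cells, and without the third CB pool the ratios were 0.58 and 0.81.

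Counted over the 7 genes, 3 were at least 2-fold higher in CPCC than in mESC (Meg3, Rian and Mirg), where 13.4% of the 20272 genes listed in both tables were. At least 2-fold lower was 1 gene, Dio3, against 6.38% of all genes. In CB over mESC 5 of 7 were higher (Begain, Dlk1, Meg3, Rian and Mirg), against 24.9% of 19855 genes, and 1 was lower, again Dio3, against 11.3%. In CB over CPCC 4 of 7 were higher (Begain, Dlk1, Meg3 and Mirg; 3 without Mirg under TMM factors, DESeq2 size factors or equal weight for cells), against 17.0% of 20995 genes, and none of the 7 was lower, against 7.54%. These comparisons share their samples in pairs, so they are not independent of one another. The median log2 ratio of the 7 genes was 0.81, 2.36 and 1.06 in the 3 pairs, beside -0.02, 0.13 and 0.14 over all genes listed in the pair.

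Compared per length, the order of the genes differed between the cultures. CPM were divided by kb of merged exon length for this, a scale that assumes reads along the whole annotated gene. In mESC Gm37899 was highest at 3.54 CPM per kb, followed by Meg3 at 1.12, Rian at 1.09 and Dio3 at 0.962 CPM per kb. Meg3, Rian and Dio3 overlapped in their pools, and the pools of Gm37899 (2.17 to 6.51 CPM per kb) reached down into those of Meg3 but not of Rian or Dio3. Within each mESC pool Gm37899 was above Meg3 per kb, by 3.63, 5.45 and 2.54 times. In CPCC Gm37899 was at 8.75 CPM per kb, and B830012L14Rik at 3.85, Rian at 3.51 and Meg3 at 3.30 CPM per kb overlapped in their pools. Dlk1 came next at 0.735 CPM per kb, above Mirg at 0.427 and Rtl1 at 0.296 CPM per kb. In CB Dlk1 was highest at 28.5 CPM per kb, ahead of Meg3 at 16.6, Gm37899 at 15.3, B830012L14Rik at 6.44, Rian at 5.79 and Mirg at 1.04 CPM per kb. Without the first CB pool Dlk1 was at 4.27 CPM per kb, below Rian. Meg3 and Gm37899 overlapped in their CB pools, as did B830012L14Rik and Rian. Begain followed at 0.620, Rtl1 at 0.256 and Dio3 at 0.0801 CPM per kb.

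**Figure D3:**
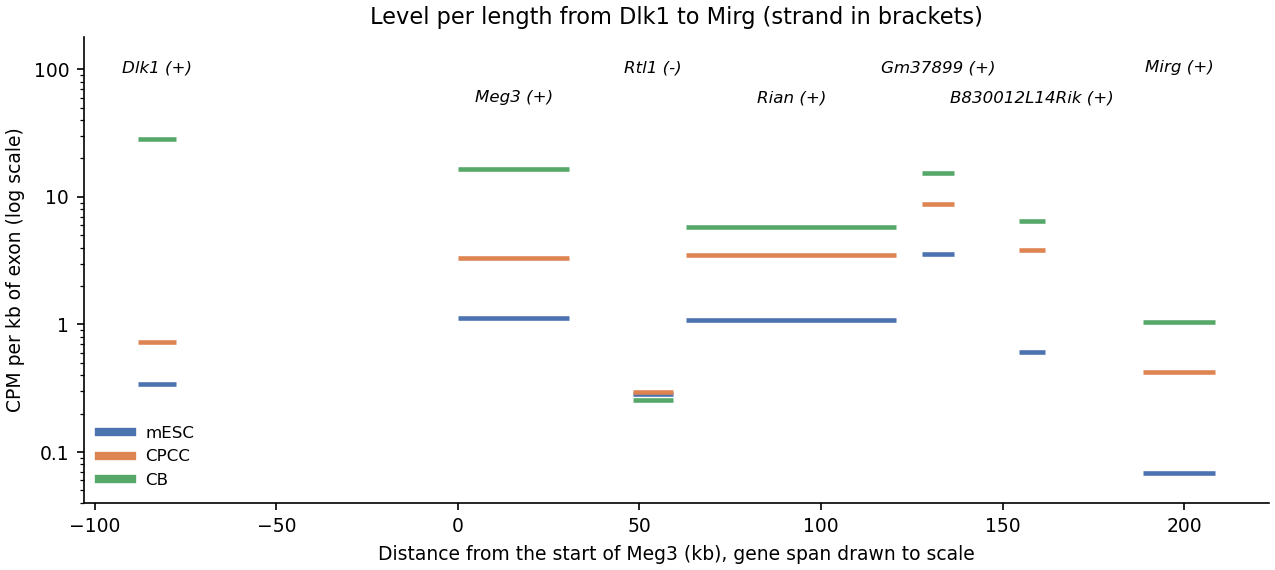
CPM per kb of merged exon (log scale) against distance from the start of Meg3 in kb, with each gene drawn over its annotated span, for the 3 cultures. From mESC to CB the plus-strand RNAs were lifted at every position, Meg3 by more than Rian, while the 3 bars of the minus-strand gene Rtl1 lay close to one another.

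The plus-strand RNAs did not keep a fixed ratio to Meg3. Rian had 0.973 counts for each count of Meg3 in mESC, 1.07 in CPCC and 0.353 in CB. By pool this ratio was 1.64, 0.994 and 0.779 in mESC, 1.26 and 0.948 in CPCC and 0.377, 0.356 and 0.340 in CB, so that each CB pool was below each pool of the other cultures and the 3 CB pools lay close together. The ratio of Gm37899 to Meg3 behaved alike, at 1.52 in mESC, 1.28 in CPCC and 0.444 in CB. Its pools ran between 1.22 and 2.62 in mESC, between 1.12 and 1.51 in CPCC and between 0.392 and 0.530 in CB. These ratios are taken within a library and do not depend on the scaling.

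For the RNAs farther downstream the CB pools overlapped those of mESC. B830012L14Rik had 0.136 counts for each count of Meg3 in mESC, 0.291 in CPCC and 0.0970 in CB, with mESC pools from 0.0814 to 0.318, CPCC pools at 0.198 and 0.354 and CB pools from 0.0838 to 0.130, each below both CPCC pools. Mirg had 0.0243, 0.0522 and 0.0253 counts, with mESC pools from 0.00810 to 0.0374, CPCC pools at 0.0302 and 0.0670 and CB pools from 0.0185 to 0.0347. Summed over pools both were highest relative to Meg3 in CPCC, but the CPCC pools overlapped those of mESC for both and those of CB for Mirg. Leaving out the low-quality cells raised the ratio of Rian to Meg3 in mESC to 1.30 and left it at 1.08 in CPCC and 0.354 in CB.

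**Figure D4:**
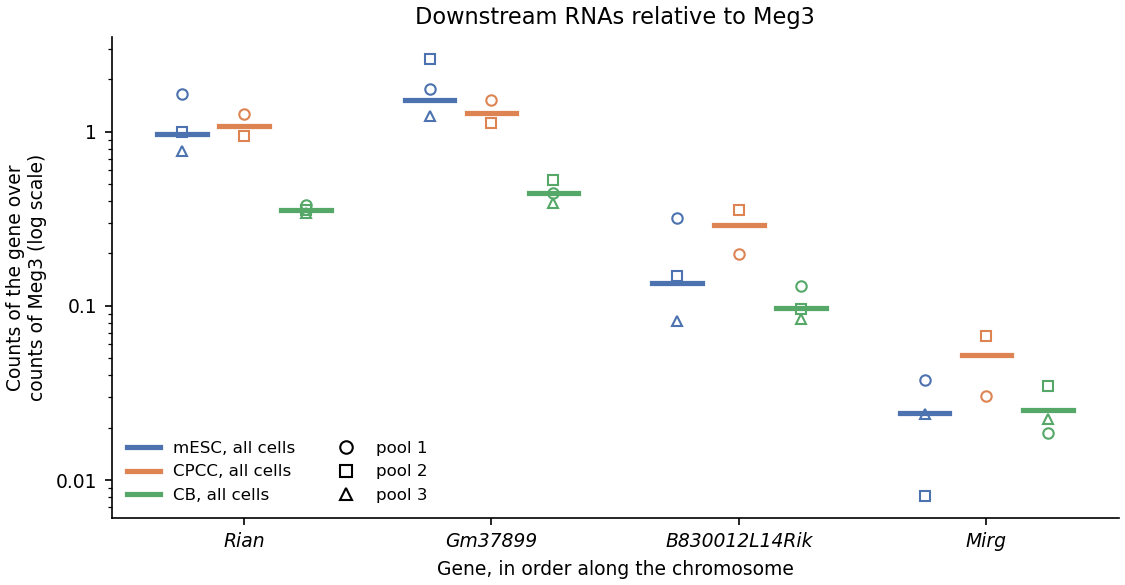
Counts of 4 downstream plus-strand RNAs divided by the counts of Meg3 (log scale), with a bar for all cells of a culture and an open symbol for each pool. For Rian and Gm37899 the CB pools lay below those of mESC and CPCC, and for B830012L14Rik and Mirg they overlapped those of mESC.

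Single cells were described where they held at least 50 counts of Meg3, a choice made on the lower term of the ratio that kept 42 of 215 mESCs, 71 of 175 CPCC cells and 164 of 232 CB cells, so no order of the cultures is read from it. The median ratio of Rian to Meg3 was 0.367 in 42 mESCs, 1.05 in 71 CPCC cells and 0.173 in 164 CB cells. Rian was at 0 in 7 of the 42 mESCs (16.7%), in 5 of the 71 CPCC cells (7.04%) and in 41 of the 164 CB cells (25%). The cells with more counts of Rian than of Meg3 were 14, 38 and 18.

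How often the plus-strand RNAs were found in the same cell was compared with the number from the 2 shares within each pool. Meg3 and Rian were found together in 74 mESCs, 118 CPCC cells and 133 CB cells, where the shares gave 56.5, 101 and 119, or 1.31, 1.17 and 1.12 times as many. After thinning these were 1.27, 1.18 and 1.13. Of the cells with Rian 79.6%, 92.9% and 98.5% held Meg3. The ratio has an upper bound set by the shares, which is lower where Meg3 is common. No order of the cultures is therefore read from it. Rian was found without Meg3 in 19 of the 93 mESCs that held it, in 9 of 127 CPCC cells and in 2 of 135 CB cells, and Meg3 without Rian in 46, 20 and 72 cells. Mirg was found without Meg3 in 2 of the 16 mESCs that held it, and in 0 of 48 CPCC cells and 0 of 51 CB cells. Rian and Mirg were together in 49 CB cells, 1.63 times the number from the shares. Depth moved with detection, with a median of 1498980 counts in the CB cells with Meg3 and 852199 in those without, and its part in the unthinned numbers was not tested.

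Many cells had none of the plus-strand RNAs. After thinning, none of the 5 was found in 57 of 193 mESCs (29.5%, interval 23.2 to 36.5%), 24 of 157 CPCC cells (15.3%, interval 10.05 to 21.9%) and 21 of 210 CB cells (10%, interval 6.30 to 14.9%). In the mESC pools the share was 22.8%, 48.6% and 11.4%. Cells with at least 3 of the 5 made up 25.9% of mESCs, 65.6% of CPCC cells and 51.0% of CB cells. A cell with none at this depth may still have expressed them below detection.

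The protein-coding genes were set beside Meg3 in the same way. Dlk1 and Meg3 were together in 25 mESCs, 47 CPCC cells and 96 CB cells, or 1.13, 1.15 and 1.11 times the number from the shares. In thinned cells these ratios were 1.06, 1.14 and 1.07. Dlk1 without Meg3 was found in 12, 3 and 4 cells. Rtl1 was found without Meg3 in 1 of 9 mESCs, 0 of 20 CPCC cells and 0 of 28 CB cells. Dio3 and Meg3 were together in 19 mESCs, 0.994 times the number from the shares.

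Within the CB culture, Meg3 was compared between cells grouped by their Dlk1. The 51 CB cells at 100 CPM of Dlk1 or more had a median of 348 CPM of Meg3, the 43 cells from 1 to 100 CPM had 282 CPM and the 125 cells below 1 CPM had 134 CPM. The quartiles were 180 and 669 CPM, 94.4 and 454 CPM, and 7.002 and 367 CPM, so that the groups overlapped. Of the 51 cells 37 came from the first pool, and there the 3 medians were 302, 215 and 112 CPM. In the second pool, with 3, 14 and 55 cells, they were 198, 327 and 117 CPM, and in the third, with 11, 11 and 62 cells, 651, 281 and 147 CPM. The cells below 1 CPM thus had the lowest median in each pool, and the order of the other 2 groups differed in the second. Of the 51 cells 35 lay in the fibroblast-like cluster of cells, against 29 of the 125, and the part of the cluster in the medians was not tested. Rian was found in 76.5%, 79.1% and 48.0% of these groups of cells.

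Of the 5 genes whose levels went most with Meg3 from cell to cell, 2 in mESC, 3 in CPCC and 2 in CB were its neighbours in the region. The measure was the Spearman correlation of CPM within pools, averaged over pools by cells, among genes found in at least 25% of the cells of a culture. It is a description of cells that share a library and a depth. In mESC (203 cells, 11910 genes) the 5 highest were Gm37899 at 0.47, Rian at 0.42, Malat1 at 0.29, Arnt at 0.26 and Gm37376 at 0.26. In CPCC (169 cells, 12072 genes) they were Gm37899 at 0.69, Rian at 0.65, B830012L14Rik at 0.48, Gm27000 at 0.48 and Fat1 at 0.45. In CB (219 cells, 9729 genes) they were the Meg3 copy Gm27000 at 0.63, Rian at 0.59, Gm37899 at 0.51, Fbln1 at 0.39 and Ccnd3 at 0.39. Rian was second in all 3 cultures, also with a Pearson correlation of log2(CPM + 1) and with all cells of a culture pooled. Mirg was in fewer than 25% of cells in mESC and CB and so not among the genes ranked there. Its correlation was 0.16 and 0.41 in these, with 66 and 3 genes above it. In CPCC it reached 0.41 with 5 genes above it. The median over all genes was -0.03 in mESC and in CB and 0.05 in CPCC.

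Dlk1 went with Meg3 less than Rian did in both differentiated cultures, and more closely in rank in CB than in CPCC. In CPCC its correlation with Meg3 was 0.18, with 961 of 12072 genes above it, and in CB 0.27, with 36 of 9729 genes above it. The 5 genes most like Dlk1 in CPCC were Tcf15 at 0.41, Mt3 at 0.39, Phlda2 at 0.38, Gm2694 at 0.37 and Caprin2 at 0.36. In CB they were Gas1 at 0.37, Fbln1 at 0.37, Ptn at 0.35, B830012L14Rik at 0.34 and Col9a2 at 0.33. Dlk1 was in too few mESCs for this measure. Rtl1 had 57 genes above it in CPCC and 185 in CB by its correlation with Meg3, at 0.31 and 0.20. Dio3 and Begain had correlations with Meg3 between -0.03 and 0.05 in the 3 cultures.

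The cells of each culture were clustered without the genes of this region, so that the 7 genes had no part in the clusters. The 3 mESC clusters all held the 10 pluripotency markers in most of their cells. Of the 85 cells of the cluster led by Cdx1, Id3, Rpph1, Rbfaos and Fbp2, 83 came from the first pool, and the other 2 clusters mixed mainly the second and the third. Meg3 was at 9.91 CPM in that cluster, 30.5 CPM in the cluster led by Gm49493, Gm5216, Nsdhl, Gm12435 and Pgk1-ps1, and 16.2 CPM in the cluster led by Bnip3, Gm16439, AC160336.1, H2-Q2 and Bhlhe40. The median cells had 2.54, 6.98 and 0.207 CPM, and 54.1%, 62.5% and 50% of cells held Meg3, so by these measures the last cluster and not the first was lowest. Within the latter 2 clusters Meg3 was at 48.3 and 43.0 CPM in the cells of the third pool and at 6.96 and 7.58 CPM in those of the second. The third pool was thus higher within both clusters.

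In CPCC the genes were near or at 0 in the cluster of macrophage-like cells. The 14 macrophage-like cells, all from the second pool and led by Lyz2, C1qa, Cx3cr1, Cd33 and C5ar1, held 8 of 8 macrophage markers in most cells and had a median depth above that of the sample. They had Meg3 at 1.11 CPM, Rian at 3.61 CPM, Gm37899 at 0.317 CPM and B830012L14Rik at 0.127 CPM, and Dlk1, Rtl1, Mirg, Dio3 and Begain were at 0 in all 14. For 0 of 14 cells the exact interval reaches up to 23.2%. When 20 components were used for clustering in place of 10, no CPCC cluster had Meg3 below 47.8 CPM. Pluripotency markers were in most cells of 2 clusters, which both held 6 of 8 epithelial markers as well, and these 2 are called by their leading genes. In the 66 cells led by Nr0b1, Calcoco2, Arl14epl, Hsd17b14 and Rpl10l (10 of 10 pluripotency markers) Meg3 was at 50.5 CPM and Rian at 47.9 CPM. In the 55 cells led by Fbln5, Mgp, Col1a2, Cdh11 and Col1a1 Meg3 was at 73.6 CPM and Rian at 105 CPM, and in the 30 cells led by Fgf8, Ackr4, Fgf5, Wipf3 and Gm26737 (8 of 10 pluripotency and 3 of 7 smooth muscle markers) at 105 and 54.99 CPM. The median cell of the cluster led by Fgf8 had 32.2 CPM of Meg3 (upper quartile 53.8 CPM), beside 46.4 CPM for the median cell of the cluster led by Fbln5. The Meg3 shares were 80.3%, 89.1% and 96.7% of cells in these 3 clusters and 28.6% in the macrophage-like cells. A last cluster of 10 cells had a median of 76816.5 counts and was led by mitochondrial and repeat-like transcripts (Gm29216, Gm10800, Gm13340, mt-Rnr2 and Gm10925), and was left unnamed. When CPCC was clustered at resolution 1.0, a cluster of 11 cells other than the macrophage-like 14 also had Dlk1 at 0. It had Meg3 at 4.13 CPM in 3 cells, though Rian was at 64.9 CPM. Low Meg3 and Dlk1 were thus not particular to the macrophage-like cells.

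Dlk1 in CPCC was found in the largest share of cells in the cluster led by Nr0b1. It was in 53.0% of these 66 cells, 16.4% of the 55 cells led by Fbln5 and 20% of the 30 cells led by Fgf8 (Clopper-Pearson intervals 40.3 to 65.4%, 7.77 to 28.8% and 7.71 to 38.6%). Of the cells led by Nr0b1 57 came from the first pool, and there 61.4% held Dlk1, while of the 9 from the second pool none did. Pool and cluster therefore overlap in this share. The 3 CPCC cells with Dio3 were in the cluster led by Nr0b1, at 0.550 CPM.

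In CB the level of Meg3 over all pools was highest in the fibroblast-like cluster. So was that of Dlk1, though Dlk1 was not highest there in the third pool. Its 80 cells held 9 of 10 fibroblast markers and were led by Eln, Ogn, Nkd2, Ctsk and Igfbp7, with Meg3 at 464 CPM in 80 of 80 cells, Rian at 146 CPM and Dlk1 at 376 CPM. In the 89 cells led by Car14, Sall4, Hist1h2ao, Gm4705 and Prtg, which held too few markers of any list to be named, Meg3 was at 260 CPM, Rian at 108 CPM and Dlk1 at 70.3 CPM. The 43 epithelial-like cells (8 of 8 markers, with 5 of 10 fibroblast markers, led by Serpinb11, Krt15, Krt6a, Krt4 and Cyp2f2) had Meg3 at 140 CPM and Dlk1 at 15.9 CPM. The 20 endothelial-like cells (10 of 10 markers, led by Icam2, Cd93, Adgrl4, Klhl4 and Gja4, all from the second pool) had Meg3 at 150 CPM in 95% of cells and Dlk1 at 0.481 CPM in 2 cells. Rian was at 51.6 and 51.9 CPM in these last 2 clusters. Meg3 in the median cell was 373, 179, 7.24 and 135 CPM in the 4 clusters in this order, so that the median epithelial-like cell lay far below the summed level of its cluster. By pool the fibroblast-like cluster held 34, 0 and 46 cells and the cluster led by Car14 held 24, 58 and 7. Meg3 was lowest in the second pool, at 233 CPM beside 335 and 345 CPM. Pool and cluster therefore overlap in the level of Meg3. No CB cluster held 3 of the 12 cardiomyocyte markers in most of its cells, so the 7 genes could not be described in a cardiomyocyte-like cluster.

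**Figure D5:**
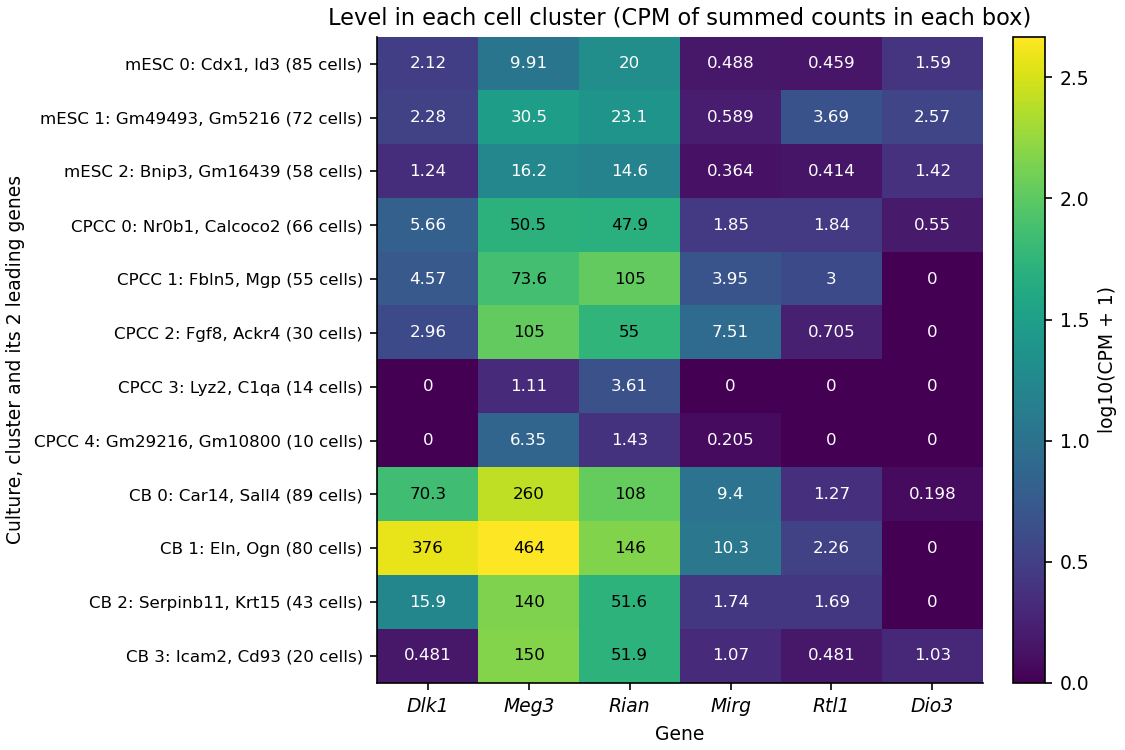
CPM of the summed counts (number in each box, color as log10(CPM + 1)) for 6 genes in each cell cluster, named by culture, cluster number and 2 leading genes. Over all pools Dlk1 and Meg3 were highest in the CB cluster led by Eln and Ogn, for Dlk1 with most counts from the first pool (in the third it was at 50.4 CPM there and at 82.1 CPM in the cluster led by Car14), and the 6 genes were at 3.61 CPM or less in the CPCC cluster led by Lyz2 and C1qa.

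The difference in Dlk1 between the CB pools was present within clusters. In the fibroblast-like cluster Dlk1 was at 1173 CPM in the 34 cells of the first pool and at 50.4 CPM in the 46 cells of the third, in 100% and 41.3% of cells. In the cluster led by Car14 it was at 416 CPM in 24 cells of the first pool, 16.4 CPM in 58 cells of the second and 82.1 CPM in 7 cells of the third, where it was thus above the fibroblast-like cluster. In the epithelial-like cluster it was at 76.8 CPM in 11 cells of the first pool and 1.68 CPM in 32 cells of the third. Meg3 differed far less between the same cells, at 412 and 485 CPM in the fibroblast-like and at 235 and 118 CPM in the epithelial-like cells of the first and the third pool. What set the first pool apart was not tested.

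The genes that flank the region and those that its products act with were taken from lists, and are given as counts without a test. Of 7 genes upstream of Begain, 3 were at least 2-fold higher in CB than in mESC among 6 listed in both (Evl, Slc25a29 and Slc25a47), and of 9 genes downstream of Dio3 none was higher and 1 was lower, Hsp90aa1, from 4742 to 770 CPM. The median log2 ratio was 0.85 upstream and -0.49 downstream, beside 0.13 over all genes. Wars, which had a high level in all cultures, had a ratio of -0.76. In CPCC over mESC 2 of 6 upstream genes were higher (Evl and Slc25a29), and of 9 downstream genes 2 were higher (Wdr20 and Traf3) and 1 lower (Hsp90aa1). In CB over CPCC 3 of 7 upstream genes were higher (Evl, Degs2 and Slc25a29) and 1 lower (Wars), and 0 of 9 downstream genes were higher and 1 lower (Hsp90aa1). Over all genes the shares higher and lower were 24.9% and 11.3% for CB over mESC, 13.4% and 6.38% for CPCC over mESC and 17.0% and 7.54% for CB over CPCC. Without the second CPCC pool 1 upstream and 0 downstream genes were higher in CPCC than in mESC, and Hsp90aa1 was no longer 2-fold lower. Without the second CB pool 1 downstream gene was higher and 2 were lower in CB than in mESC, and without the third the median downstream ratio was 0.06.

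Of 15 Notch pathway genes besides Dlk1, which is known as an atypical ligand, 13 were listed in mESC and CB and 9 were at least 2-fold higher in CB, where 24.9% of all genes were. Of all 15 listed in CPCC and CB, 12 were higher (17.0% of all genes) and 1, Dll3, was lower in CB (7.54%), and in CPCC over mESC 2 of 13, Notch2 and Dll3, were higher (13.4%). Those at least 4-fold higher in a pair were the receptors Notch2 and Notch3, the ligands Jag1 and Dll4, the Dlk1 paralog Dlk2 and the target genes Hes1, Hey1, Hey2 and Heyl. Hey1 was at 4.38 CPM in mESC, against 4.56 CPM for CPCC and 41.1 CPM for CB, and Dlk2 at 0.245, 1.17 and 8.37 CPM. Rbpj, the DNA-binding partner of the receptors, was at 83.6, 86.2 and 52.4 CPM. The median ratio of the list for CB over mESC was 1.98. Endothelial markers rose too, at 95.9 CPM in mESC, against 157 CPM for CPCC and 587 CPM for CB. In the CB pools they were at 98.1, 1393 and 58.1 CPM. Some other marker lists did the same. Cardiomyocyte markers were at 73.8, 166 and 590 CPM in the cultures and at 280, 1354 and 23.8 CPM in the CB pools. Endoderm markers were at 3.84, 20.2 and 587 CPM, and at 32.4, 1486 and 2.26 CPM. Fibroblast markers were at 3.98, 584 and 9598 CPM and were lowest in the second CB pool. By CB pool Dll4 was at 0.561, 18.97 and 0 CPM and Hey1 at 12.2, 86.6 and 11.9 CPM, both highest in the second. Notch1, Notch3, Notch4, Dll1 and Hey2 were highest there too. Dlk2 was at 13.7, 0.0454 and 13.7 CPM and lowest there. Notch2 (14.7, 13.1 and 60.7 CPM), Jag1 (27.3, 27.9 and 53.0 CPM), Jag2 and Heyl were highest in the third. Hes1 (372, 180 and 270 CPM), Rbpj and Dll3 were highest in the first. Without the second CB pool 9 of 13 genes were higher and 1 lower over mESC, and 9 of 15 were higher over CPCC. For CPCC over mESC the number higher was 5 without the first CPCC pool and 0 without the second, 4 without the second mESC pool and 1 without the third. The part of any cell type was not tested.

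Of 7 genes of thyroid hormone handling, 3 were listed in mESC, and these, Thra, Crym and Slc16a10, were at least 2-fold higher in CB, where 24.9% of all genes were. Thra, a receptor, was at 8.10 CPM in mESC, against 4.37 CPM for CPCC and 45.0 CPM for CB, and Crym, which binds the hormone in the cytosol, at 1.51, 8.26 and 20.7 CPM. Dio2, which activates the hormone and so opposes Dio3, was listed in the CB table alone of the 3, at 15.9 CPM.

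Of 12 genes that set or keep imprints, 6 of 11 listed were at least 2-fold lower in CB than in mESC and 3, Zfp445, Dnmt3a and Aff3, were higher, beside 11.3% and 24.9% of all genes. ZFP57, which binds methylated imprints, had its gene Zfp57 at 119 CPM in mESC, against 62.6 CPM for CPCC and 16.1 CPM for CB, and its partner Trim28 was at 610, 382 and 185 CPM. Dnmt3l, a cofactor of the de novo DNA methyltransferases, was at 24.3, 153 and 0.248 CPM, and Dnmt3b at 48.5, 139 and 11.5 CPM. Dppa3 was at 175 and 41.0 CPM in mESC and CPCC and was not listed in CB. Uhrf1 was at 179, 80.0 and 41.5 CPM, and Aff3 at 0.125, 5.79 and 15.5 CPM. In CPCC over mESC 4 of 12 were higher and 3 lower (13.4% and 6.38% of all genes), and in CB over CPCC 2 of 11 were higher and 4 lower (17.0% and 7.54%). Without the first CPCC pool 2 were higher and 5 lower in CPCC than in mESC, and without the second 4 and 1. For CB over CPCC 1 to 2 were higher and 2 to 5 lower with a pool left out, the fewest lower without the first CPCC pool. Of 10 genes of Polycomb repressive complex 2, which can bind Meg3 RNA, 4 were lower in CB than in mESC (Suz12, Eed, Jarid2 and Mtf2), against 11.3% of all genes, and none was higher, against 24.9%, and in CPCC over mESC 2 were lower (Suz12 and Mtf2), against 6.38%. In CB over CPCC 1 was higher (Ezh1) and 1 lower (Eed), against 17.0% and 7.54%. Of the PRC2 genes lower in CPCC than in mESC there were 5 without the first CPCC pool, 1 without the second and 3 without the first mESC pool. For CB over CPCC 4 were lower without the second CB pool, 3 without the second CPCC pool and 0 without the first CPCC pool, and for CB over mESC 6 were lower without the first mESC pool. Those over 4-fold lower were Eed, from 325 to 64.7 CPM, and Mtf2, from 514 to 119 CPM.

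Many imprinted genes outside the region were also higher. Of 22 imprinted genes elsewhere in the genome, 20 were listed in mESC and CB, of which 14 were at least 2-fold higher in CB and 2 lower, beside 5 and 1 of the 7 genes here and 24.9% and 11.3% of all genes. In CPCC over mESC 14 of 21 were higher and 3 lower (13.4% and 6.38% of all genes), and in CB over CPCC 12 of 21 were higher and 2 lower (17.0% and 7.54%). Without the first CPCC pool 10 were higher and 2 lower in CPCC than in mESC, and the median ratio fell from 1.85 to 0.997. With any other pool left out 13 to 15 were higher in that pair. For CB over mESC the number stayed at 14, and for CB over CPCC it ran from 12 to 14. The median ratio of this list for CB over mESC was 3.52, against 2.36 for the 7 genes. H19 was at 0.122, 365 and 2654 CPM in mESC, CPCC and CB, Igf2 at 0.0370, 1.74 and 129 CPM, and Mest at 85.0, 484 and 2324 CPM. The others more than 4-fold higher in CB than in mESC were Cdkn1c, Peg3, Plagl1, Peg10, Sgce, Ndn, Magel2, Nnat, Gnas, Asb4 and Usp29. Grb10 and Igf2r were lower, the former at 11.8, 3.91 and 1.61 CPM. Dcn, at 1260 CPM in CB, was not listed in mESC and is also one of the fibroblast markers used above.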

How the data were processed

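Single cells of 3 cultures were captured on a Fluidigm C1, and their polyadenylated RNA was amplified with SMART-Seq v4 and sequenced as paired reads without molecular identifiers. The authors aligned the reads to mm10 with STAR 2.7 in Partek Flow and made the count tables there. Whether counting used strand is not given in the sources used here. The authors deposited 1 table of gene by cell per culture, with totals of both alleles. The CPCC table holds counts that are whole numbers, and the deposited mESC and CB tables hold estimated counts that are partly fractional, which were used unrounded. In that for CPCC, 208 unnamed rows and 23 rows whose gene symbols had become dates were dropped (0.139% of its counts), and 2 columns with no sample were not used. A CB cell could hold as few as 4 counts, and no cell was removed unless stated. No 2 cells had identical values. No doublet caller was run.

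The 7 genes and all lists were chosen with earlier results of these data known. Each culture is 1 sample, so counts were summed over cells, scaled to 1000000 counts of the total (CPM) and compared as log2 of (CPM + 1), with a 2-fold limit and no test. Detection in a cell required 1 count or more. Quantiles and correlations used cells of at least 100000 counts. Thinning to 430000 counts left out 22 mESC, 18 CPCC and 22 CB cells. Intervals are exact Poisson (levels) or Clopper-Pearson (shares) at 95%, and cover counting error only. Cells were clustered with Seurat 5.3.0 (10 components, resolution 0.6) without the genes from Begain to Dio3, and a cluster was named from at least 3 markers. Named besides the 7 were other genes of the region at 1 CPM or more, the 5 genes most like Meg3 or Dlk1, 5 leading genes of a cluster, and, of a list, the 2 most abundant genes and those 4-fold apart. Other list genes are named where a count is small, and were chosen after their values were seen, as was Gm27000. A result that this rule would name in 1 list is not reported here. Alternatives were TMM factors (edgeR 4.0.16), DESeq2 1.42.0 size factors, equal weight for cells, other pseudocounts, filters on genes and cells, other detection limits and clusterings, and leaving out each pool. R 4.3.3, Python 3.11.15 and scipy 1.17.1 were used, and the log2 ratios and correlations were tested on simulated data. Positions and exon lengths came from GENCODE M21 (GRCm38).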

Additional observations from a re-analysis of the deposited data

How the results depend on the processing

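The number of the 7 genes at least 2-fold higher in CPCC than in mESC was between 2 and 4 under the alternatives that kept all pools. The numbers fell to 3 for CB over mESC and to 2 for CB over CPCC both with a pseudocount of 10 CPM and with only genes of at least 10 CPM in 1 of the 2 samples, since Begain and Mirg then no longer counted. For CB over CPCC it was 3 with TMM factors, DESeq2 size factors and equal weight for cells, without Mirg. With each pool left out in turn they ran from 2 to 4 for CPCC over mESC, from 4 to 5 for CB over mESC and from 3 to 4 for CB over CPCC. No called ratio changed sign. Of 197 log2 ratios under alternatives that kept all pools 184 stayed on their side of the 2-fold limit, and of 112 with a pool left out 107 did. Meg3 ran from 3.33 to 4.84 for CB over mESC, and Dlk1 from 3.10 to 6.45. The changed calls were those of genes near the limit or at low counts. Mirg for CB over CPCC fell to 0.90 with TMM factors, 0.89 with DESeq2 size factors, 0.71 with equal weight for cells and 0.61 without the first CPCC pool, and for CPCC over mESC to 0.74 without the second CPCC pool. Dlk1 for CPCC over mESC passed the limit at 1.06 with a pseudocount of 0.1 CPM and at 1.16 without the third mESC pool. Begain for CB over mESC fell to 0.49 with equal weight for cells. The Dio3 calls were lost with a pseudocount of 10 CPM. Causes were not tested. The median ratio of all genes was 0.13 for CB over mESC and 0.14 for CB over CPCC, and 0.01 and 0.03 with DESeq2 size factors, so ratios of that size are within the scaling. The ratios to Meg3 were recomputed under alternatives chosen after seeing the data. That of Rian in mESC was 1.30 with the filter on cells and ran from 0.816 to 1.37 with a pool left out, B830012L14Rik in mESC reached 0.247 without the third pool, and Mirg in CPCC fell to 0.0302 without the second. Shares of cells depend on the detection limit, and with 10 counts Meg3 was found in 42.8% of mESCs, 70.3% of CPCC cells and 79.3% of CB cells. With a pool left out Dlk1 was found in 12.5 to 48.1% of CPCC cells and in 26.4 to 52.6% of CB cells. The gene lists were also counted with each pool left out, likewise chosen after seeing the data. Of 36 cluster levels 5 moved with other clusterings. Among these, at resolution 1.0 the highest CB cluster level of Dlk1 rose to 927 CPM (37 cells). The highest mESC cluster level of Meg3 rose to 54.3 CPM (31 cells). Begain, Dio3 and Rtl1 were found in few cells, and a cell with no count of them may still express them below detection. No paired analysis was possible because each culture is 1 sample and the columns carry no replicate numbers.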
